A study of Homo sapiens and Mus musculus with 12 samples.

Results

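The genes described here are 10 markers of the epithelial–mesenchymal transition (EMT): the transcription factors *SNAI1*, *SNAI2*, *TWIST1*, *ZEB1* and *ZEB2*, the adhesion genes *CDH1*, *CDH2*, *EPCAM* and *CLDN7*, and *VIM*, together with the mouse genes of the same symbols. They were listed by symbol, and no threshold on their values was used, although earlier results of these data were known. All 10 were found among the 63677 gene identifiers counted in the human line and the 47729 counted in the mouse line. RNA-seq was performed in MDA-MB-231, a human triple-negative breast cancer line of mesenchymal shape, and 4T1, a mouse mammary carcinoma line derived from a BALB/c tumor. Cells of each line were kept for 24 h with 1 μmol/L ponatinib, which inhibits many tyrosine kinases, or with DMSO, the solvent. There were 3 libraries in each of the 4 groups and 12 in all, and both lines carry the genotype label WT. No other allele or agent is labelled. The labels do not say whether the 3 libraries of a group came from separate cultures, so that p-values measure the spread between these libraries, which may be technical. Each line is a culture without stroma or immune cells and stands for a single tumor.

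In EMT, epithelial cells loosen their cell–cell junctions and take on a migratory, mesenchymal form. Factors of the SNAIL, TWIST and ZEB families bind E-box sequences in the promoters of junction genes, above all *CDH1*, and lower their transcription. E-cadherin, EpCAM and claudin-7 mark the epithelial state, while N-cadherin and the intermediate filament protein vimentin mark the mesenchymal state. Breast cancer cells often express markers of both states at once.

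The MDA-MB-231 libraries held 15012884 to 17301760 counts each and the 4T1 libraries 17800675 to 18951493. At this depth, 3 counts correspond to 0.164 to 0.199 CPM (counts scaled to library size) in MDA-MB-231 and 0.153 to 0.170 CPM in 4T1, and this value was used as the floor of detection (counting error only). In each of the 4 groups, replicate 1 stood farther from the other libraries (chi-square per gene 8.93 to 16.5) than replicates 2 and 3 did from each other (2.95 to 6.98). Of 6 epithelial markers, 5 had a mean over 1 CPM in MDA-MB-231 and all 6 in 4T1. The defining marker *CDH1* was at the floor in MDA-MB-231, so that the label "epithelial cell" rested on keratins and a low level of *EPCAM* there. Leukocyte markers summed to at most 2.44 CPM in any library of either line.

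The E-box that SNAIL and ZEB factors bind is CACCTG, or CAGGTG when read on the other strand. To show where these letters stand, the 250 bases before the transcription start were read from the RefSeq promoters of human genes (GRCh38.p14), which hold entries for *ZEB1*, *ZEB2*, *CDH2*, *VIM* and *CLDN7*. *SNAI1*, *SNAI2*, *TWIST1*, *CDH1* and *EPCAM* had no entry. The 4 windows shown are from the 3 members with an entry that passed the test in MDA-MB-231. E-boxes are in capitals, and all sequences run 5′ to 3′ on the strand of the gene.

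CLDN7, downstream start, chr17:7262479-7262728, minus strand: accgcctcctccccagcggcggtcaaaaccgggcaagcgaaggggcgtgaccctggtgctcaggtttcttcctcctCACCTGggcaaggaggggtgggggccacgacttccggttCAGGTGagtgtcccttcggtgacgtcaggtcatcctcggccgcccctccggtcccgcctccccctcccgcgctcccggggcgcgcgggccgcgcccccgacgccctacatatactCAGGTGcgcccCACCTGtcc

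CLDN7, upstream start, chr17:7263214-7263463, minus strand: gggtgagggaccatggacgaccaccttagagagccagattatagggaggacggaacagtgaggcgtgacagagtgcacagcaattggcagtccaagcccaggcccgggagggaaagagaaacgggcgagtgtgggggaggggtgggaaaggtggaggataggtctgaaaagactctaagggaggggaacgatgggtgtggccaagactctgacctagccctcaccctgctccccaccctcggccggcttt

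ZEB1, chr10:31318966-31319215, plus strand: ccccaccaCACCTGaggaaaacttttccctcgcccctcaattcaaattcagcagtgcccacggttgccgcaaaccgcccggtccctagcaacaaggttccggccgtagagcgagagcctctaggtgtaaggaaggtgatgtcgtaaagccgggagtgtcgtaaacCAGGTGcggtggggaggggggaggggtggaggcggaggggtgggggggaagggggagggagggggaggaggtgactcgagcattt

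VIM, chr10:17227991-17228240, plus strand: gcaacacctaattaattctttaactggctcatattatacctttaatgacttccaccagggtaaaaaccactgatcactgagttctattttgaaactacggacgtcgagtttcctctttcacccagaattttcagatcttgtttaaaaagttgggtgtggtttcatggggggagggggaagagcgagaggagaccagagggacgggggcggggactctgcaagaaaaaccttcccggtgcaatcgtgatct

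The window of the downstream *CLDN7* start held 4 E-boxes, at 174, 135, 20 and 9 bases before the start. Among all 35116 RefSeq windows of 250 bases, 17.5% held at least 1 E-box, 2.53% at least 2 and 0.122% at least 4. These shares are per window, whereas the window with 4 is the richest of several read for the members. The window of the other *CLDN7* start held 0. Of 7 annotated *ZEB1* starts, the one printed had 2 E-boxes, another had 1, and 5 had 0. The windows of *VIM* and *ZEB2* held 0, and those of *CDH2* are not counted here. The match is of letters only, both strands were read, and the counts per gene do not tell which start was used.

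The baseline was compared between genes as RPKM, that is CPM per kilobase of annotated exon, in the 3 DMSO libraries of each line. In MDA-MB-231, *VIM* was highest at 249 ± 21.2 RPKM (SD, n = 3), at percentile 98.9 of the 14203 genes tested that have an exon length. *CLDN7* (11.3 ± 0.973 RPKM) and *SNAI2* (10.4 ± 1.11 RPKM) came next, with ranges over libraries that overlapped. They were followed by *SNAI1* (3.34 ± 0.423 RPKM), *EPCAM* (2.65 ± 0.292 RPKM) and *ZEB1* (2.29 ± 0.238 RPKM), of which *EPCAM* and *ZEB1* overlapped. *ZEB2* had 0.256 ± 0.0324 RPKM. *CDH2*, *TWIST1* and *CDH1* were at or close to 0.

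In 4T1, the order was a different one. *Vim* (685 ± 71.7 RPKM, SD, n = 3) was again highest, but *Cdh1* followed at 179 ± 12.4 RPKM, at percentile 98.6 of 13161 genes. The line thus held high RNA levels of both a mesenchymal and an epithelial marker. *Snai2* (41.9 ± 1.00 RPKM), *Twist1* (20.7 ± 2.37 RPKM), *Zeb1* (6.84 ± 0.304 RPKM) and *Zeb2* (1.74 ± 0.244 RPKM) were next, and the ranges of neighbours in this order did not overlap. *Epcam* had 1.10 ± 0.0258 RPKM and *Snai1* 0.608 ± 0.200 RPKM. *Cldn7* (0.0444 ± 0.0409 RPKM) and *Cdh2* (0.0107 ± 0.00384 RPKM) were at the floor.

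**Figure D1:**
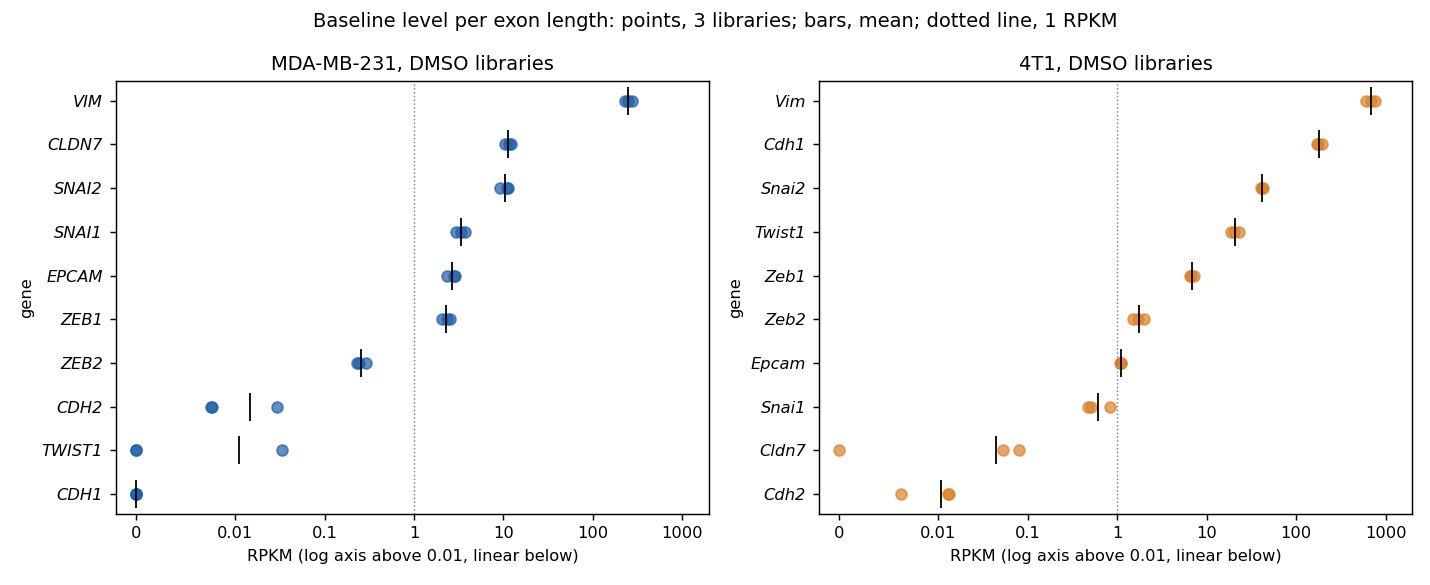
Baseline level of the 10 members in the 3 DMSO libraries of each line, in RPKM on an axis that is logarithmic above 0.01 and linear below. Points are libraries, bars are means and the dotted line marks 1 RPKM, which 6 members reached in MDA-MB-231 and 7 in 4T1.

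These counts of 6 and 7 members at or above 1 RPKM remained with the longest transcript as gene length. That choice raised single values by over 1.5 times, to 0.700 RPKM for *ZEB2*, 483 for *VIM*, 4.16 for *EPCAM*, 16.1 for *Zeb1*, 4.34 for *Zeb2* and 1113 for *Vim*. With that length, *EPCAM* stood above *SNAI1* in MDA-MB-231, where *SNAI1* remained at 3.34 RPKM. RPKM values were not compared between the species, since the annotations differ.

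In MDA-MB-231, 7 of the 10 members passed the filter on low counts and were tested for a change with ponatinib. Of these, *ZEB1* and *VIM* were lower and *CLDN7* and *EPCAM* higher, with adjusted p below 0.05 in the quasi-likelihood test of edgeR (Benjamini-Hochberg over 14610 genes). By the same test, 26.8% of all tested genes were lower, 27.2% were higher and 54.0% changed in either direction. The 3 ponatinib libraries did not overlap the 3 DMSO libraries for these 4 members, as for 60.4% of all tested genes. A change in either direction was therefore common in this line, and 4 of 7 lies near that background. In 4T1, 8 members were tested, of which *Snai2*, *Twist1*, *Zeb1* and *Zeb2* were lower and 0 higher. There, 29.4% of 13286 tested genes were lower, 29.5% higher and 59.0% changed. Again the groups of these 4 members did not overlap, as for 63.4% of all tested genes.

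**Figure D2:**
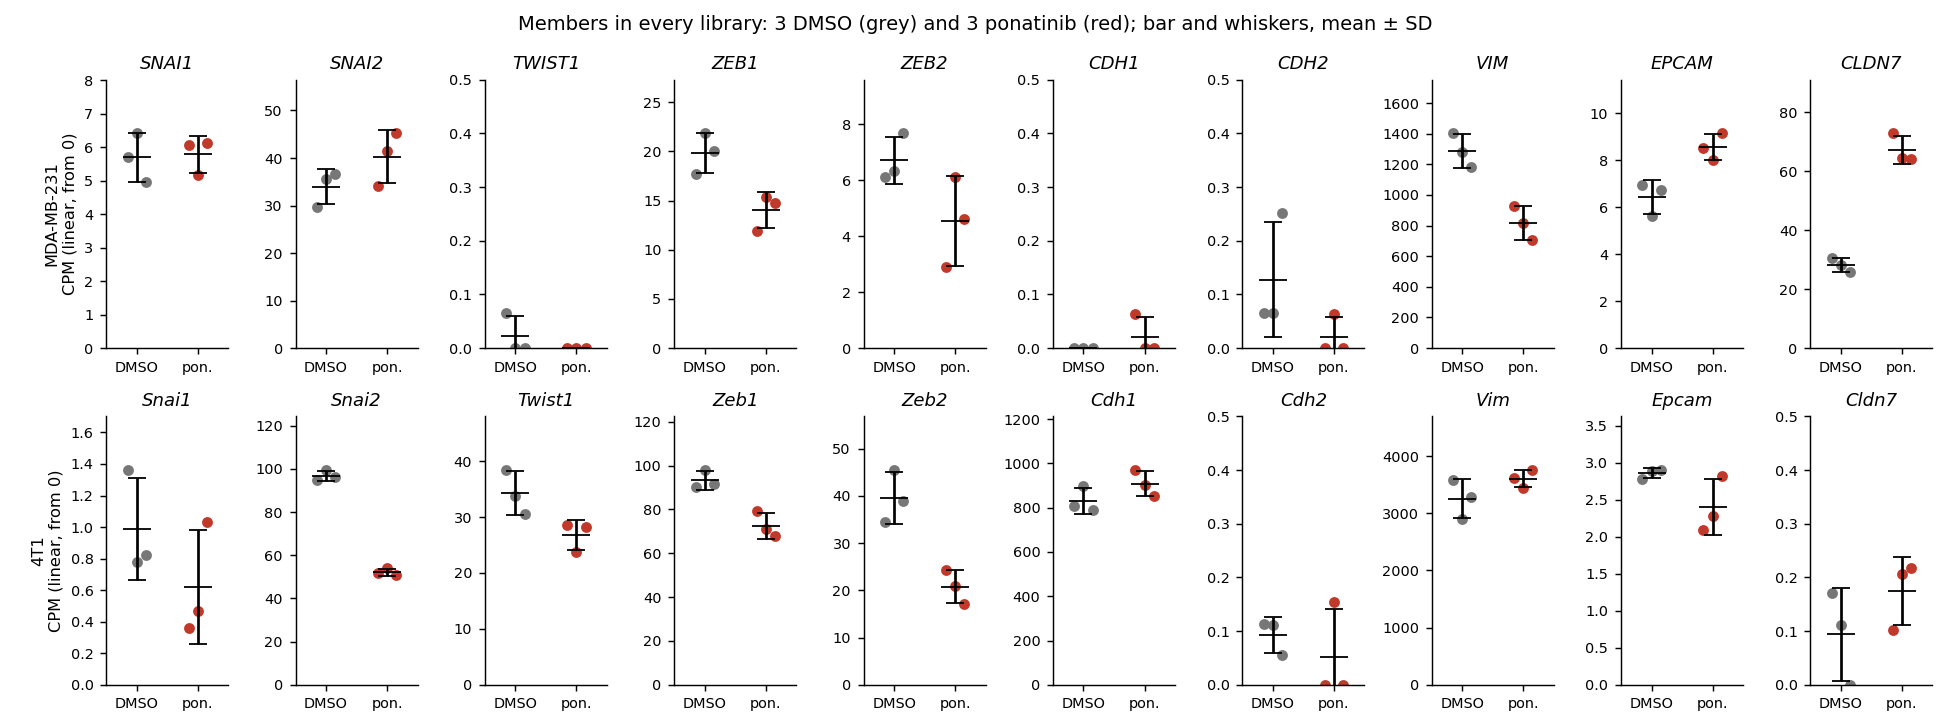
CPM of the members in every library, with a panel per gene, MDA-MB-231 above and 4T1 below, each on its own linear axis from 0. Grey points are DMSO, red points ponatinib, and bars with whiskers show mean ± SD (n = 3). The groups of *ZEB1*, *VIM*, *EPCAM* and *CLDN7* and those of *Snai2*, *Twist1*, *Zeb1* and *Zeb2* do not overlap.

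Among the transcription factors, *ZEB1* and *ZEB2* encode zinc-finger homeobox repressors of epithelial genes. *ZEB1* (ENSG00000148516, chr10:31318495-31529814 of hg38) had 17.7, 21.8 and 20.01 CPM in the DMSO libraries of MDA-MB-231 and 11.9, 15.4 and 14.7 CPM in the ponatinib libraries. All ponatinib libraries lay below all DMSO libraries. In these bulk samples, fewer cells expressing a gene and less RNA per cell cannot be told apart. The mean of 19.8 ± 2.06 CPM (SD, n = 3) fell to 0.706 of this value, a log2 fold change of -0.50 (SE 0.13, adjusted p = 0.00637). The antisense transcript *ZEB1-AS1*, which overlaps the gene, had 243 counts in all 6 libraries against 1621 for *ZEB1*, with a log2 fold change of 0.46 (SE 0.26, adjusted p = 0.151). In 4T1, *Zeb1* had 90.2, 97.9 and 91.5 CPM with DMSO and 79.1, 71.0 and 67.7 CPM with ponatinib, again without overlap. Its log2 fold change was -0.36 (SE 0.08, adjusted p = 0.00138). The difference of both responses, 4T1 minus MDA-MB-231, was 0.14 (SE 0.15, adjusted p = 0.488) and did not pass the test.

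*Zeb2* (ENSMUSG00000026872, chr2:44873644-45007464 of GRCm39) showed the largest change among the members tested in 4T1. It had 34.4, 45.5 and 38.9 CPM with DMSO and 24.3, 20.9 and 17.2 CPM with ponatinib, so that every ponatinib library was below every DMSO library. The mean of 39.6 ± 5.55 CPM fell to 20.8 ± 3.57 CPM (SD, n = 3), a log2 fold change of -0.93 (SE 0.13, adjusted p = 2.99e-05). In MDA-MB-231, *ZEB2* had 6.10, 6.35 and 7.68 CPM with DMSO and 2.90, 6.12 and 4.60 CPM with ponatinib. Ponatinib replicate 2 lay within the DMSO range. The log2 fold change of -0.56 (SE 0.23) missed the threshold at an adjusted p of 0.0610. With the replicate number as a block it was -0.59 (adjusted p = 0.00769), without ponatinib replicate 2 it was -0.83 (adjusted p = 0.0155), and with no filter on low counts the adjusted p was 0.0129. The responses of the lines differed by -0.36 (SE 0.27, adjusted p = 0.310).

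*SNAI2* encodes SLUG, a zinc-finger repressor of E-cadherin. *Snai2* (ENSMUSG00000022676, chr16:14523425-14527252) had 94.9, 99.4 and 96.4 CPM in the DMSO libraries of 4T1 and 51.6, 53.9 and 50.9 CPM in the ponatinib libraries. Relative to its mean, the spread within a group was the smallest of the 4 members called in this line, and the groups were far apart. The mean went from 96.9 ± 2.33 to 52.1 ± 1.60 CPM (SD, n = 3), a log2 fold change of -0.89 (SE 0.07, adjusted p = 1.32e-07). In MDA-MB-231, *SNAI2* (ENSG00000019549) had 29.8, 35.6 and 36.6 CPM with DMSO and 34.1, 41.5 and 45.2 CPM with ponatinib. These groups overlapped, and the log2 fold change of 0.25 (SE 0.12) had an adjusted p of 0.103. With the replicate number as a block, the value was 0.24 with an adjusted p of 0.00366, and without ponatinib replicate 1 it was 0.35 with an adjusted p of 0.0126. *SNAI2* responded differently in the lines, with a difference of -1.14 (SE 0.14, adjusted p = 2.87e-06 by edgeR's interaction test). Of 12490 same-symbol genes in this test, whose filter did not require expression in both lines, 42.0% passed.

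*SNAI1*, which encodes the founding SNAIL repressor, did not pass the test in either line. In MDA-MB-231, it had 5.70, 6.41 and 4.97 CPM with DMSO and 6.06, 5.16 and 6.13 CPM with ponatinib, which overlapped. The log2 fold change was 0.02 (SE 0.17, adjusted p = 0.913). In 4T1, *Snai1* was low, at 1.36, 0.778 and 0.820 CPM with DMSO and 0.358, 0.465 and 1.03 CPM with ponatinib. Its log2 fold change was -0.68 (SE 0.43, adjusted p = 0.192), and without ponatinib replicate 3 it was -1.24 (adjusted p = 0.0446). The difference between the lines was -0.70 (SE 0.43, adjusted p = 0.207), or -1.27 (adjusted p = 0.0322) without that library.

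*TWIST1* encodes a basic helix-loop-helix factor and was above the floor in the mouse line alone. In MDA-MB-231 it had 1 count in the 3 DMSO libraries and 0 in the 3 ponatinib libraries, which gives no comparison. In 4T1, *Twist1* (ENSMUSG00000035799, chr12:34007645-34009828) had 38.4, 33.7 and 30.6 CPM with DMSO and 28.6, 23.7 and 28.2 CPM with ponatinib. The groups did not overlap, although the lowest DMSO and the highest ponatinib library were close. The log2 fold change was -0.35 (SE 0.11, adjusted p = 0.0132). This call was lost without ponatinib replicate 2 (-0.27, adjusted p = 0.0810) and with scaling by total counts (-0.23, adjusted p = 0.0765).

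*VIM*, the vimentin gene, was the most abundant member per length in both lines. In MDA-MB-231 (ENSG00000026025, chr10:17228241-17237593) it had 1402, 1280 and 1182 CPM with DMSO and 928, 817 and 707 CPM with ponatinib. All ponatinib libraries were lower. The mean fell from 1288 ± 110 to 817 ± 110 CPM (SD, n = 3), a log2 fold change of -0.66 (SE 0.10, adjusted p = 0.000236). The antisense *VIM-AS1* held 426 counts against 100148 for *VIM*. In 4T1, *Vim* had 3587, 2907 and 3277 CPM with DMSO and 3614, 3448 and 3755 CPM with ponatinib, and the groups overlapped. Its log2 fold change of 0.15 (SE 0.09, adjusted p = 0.176) did not pass, but it did without DMSO replicate 1 (0.22, adjusted p = 0.0304) and with scaling by total counts (0.26, adjusted p = 0.0149). The responses of the lines differed by 0.80 (SE 0.15, adjusted p = 0.000224).

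*CLDN7* encodes claudin-7, a tight-junction protein. Its change was the largest among the tested members of MDA-MB-231 (ENSG00000181885, chr17:7259903-7263983). The DMSO libraries had 30.5, 28.4 and 25.7 CPM and the ponatinib libraries 72.9, 64.7 and 64.3 CPM. Every ponatinib library was over every DMSO library by a wide margin. The mean rose 2.39-fold, from 28.2 ± 2.43 to 67.3 ± 4.83 CPM (SD, n = 3), a log2 fold change of 1.26 (SE 0.10, adjusted p = 9.81e-07). The gene *ELP5* overlaps *CLDN7* on the opposite strand and had 7303 counts in the 6 libraries against 4651 for *CLDN7*. Whether strand was used in counting is not given, and without it reads of the shared stretch cannot be told apart. *ELP5* itself had a log2 fold change of -0.25 (SE 0.10, adjusted p = 0.0563). In 4T1, *Cldn7* had 5 counts in the 3 DMSO libraries and 10 in the 3 ponatinib libraries, at or near the floor, while the overlapping *Elp5* had 7527 counts in all.

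*EPCAM* encodes an epithelial cell adhesion molecule. In MDA-MB-231 (ENSG00000119888, chr2:47345158-47387601) it had 6.96, 5.63 and 6.73 CPM with DMSO and 8.52, 8.03 and 9.14 CPM with ponatinib, without overlap. The log2 fold change was 0.41 (SE 0.15, adjusted p = 0.0328). This call was lost in 6 of 12 alternatives, among them DESeq2 (0.39, adjusted p = 0.133) and the fit with no filter (adjusted p = 0.0556). It was also lost without DMSO replicate 2 (adjusted p = 0.133), DMSO replicate 3 (0.0622), ponatinib replicate 2 (0.0501) or ponatinib replicate 3 (0.104). In 4T1, *Epcam* had 2.78, 2.89 and 2.90 CPM with DMSO and 2.10, 2.27 and 2.82 CPM with ponatinib, a log2 fold change of -0.25 (SE 0.22, adjusted p = 0.338). The lines differed by -0.67 (SE 0.24, adjusted p = 0.0324), a call that DESeq2 did not make (adjusted p = 0.0582). It was also lost without 4T1 DMSO replicate 2 or 3, 4T1 ponatinib replicate 1 or 2, MDA-MB-231 DMSO replicate 2 or MDA-MB-231 ponatinib replicate 3 (adjusted p = 0.0595 to 0.0847).

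*CDH1* and *CDH2* encode E-cadherin and N-cadherin, whose exchange is the classical sign of EMT. In MDA-MB-231, *CDH1* had 0 counts in the 3 DMSO libraries and 1 count in a single ponatinib library. With ponatinib, no *CDH1* RNA above the floor was detected while *ZEB1* was lower and *CLDN7* higher. *CDH2* had 6 counts with DMSO and 1 with ponatinib over 3 libraries each, at or near the floor in every library. In 4T1, *Cdh1* (ENSMUSG00000000303, chr8:107329941-107396880) had 808, 896 and 787 CPM with DMSO and 969, 902 and 854 CPM with ponatinib. These overlapped, and the log2 fold change of 0.13 (SE 0.08, adjusted p = 0.187) did not pass the test. With scaling by total counts it was 0.25 (adjusted p = 0.0176). *Cdh2* had 5 counts with DMSO and 3 with ponatinib.

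**Figure D3:**
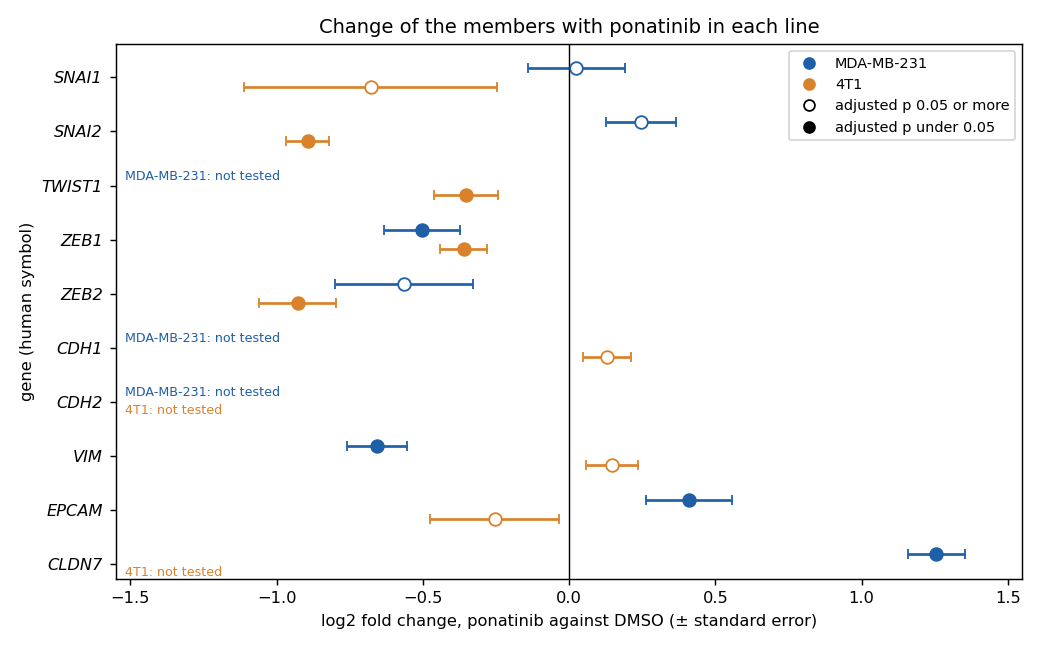
Log2 fold change of each member with ponatinib against DMSO, with its standard error, in MDA-MB-231 (blue) and 4T1 (orange). Filled points passed the test at an adjusted p under 0.05. *CLDN7* at 1.26 in MDA-MB-231 and *Zeb2* at -0.93 in 4T1 lie farthest from 0. *SNAI1*, *SNAI2*, *VIM* and *EPCAM* lie on opposite sides of 0 in the lines. Of these, only *VIM* and *EPCAM* in MDA-MB-231 and *Snai2* in 4T1 passed the test.

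When library totals were used for scaling and no TMM factor, the median log2 fold change over all tested genes was 0.11 in place of 0.02 in MDA-MB-231. In 4T1 it was 0.12 in place of -0.00. With it, 4T1 had 3 members lower and 2 higher, in place of 4 and 0. The calls of all tested genes in that line then split into 2936 lower and 4853 higher, in place of 3909 and 3925. Relative to the median of 0.12, the values of 0.25 for *Cdh1* and 0.26 for *Vim* in 4T1 exceed it by about as much as the values after TMM exceed 0. A change of scaling moves all genes of a line nearly alike. This match was therefore set beforehand and does not tell which scaling is right.

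Further genes of the transition were taken from 6 lists written from general knowledge with earlier results of these data known, with 172 genes in all. In MDA-MB-231, 135 were tested, of which 34 were lower (25.2%, beside 26.8% of all tested genes) and 48 higher (35.6%, beside 27.2%). In 4T1, 131 were tested, of which 50 were lower (38.2%, beside 29.4%) and 42 higher (32.1%, beside 29.5%). Scaling by total counts gave 38 and 46 in that line. The counts given for single lists are to be read against the shares among all tested genes, and none was tested against them. Each list is described by its calls and its median, beside the medians over all tested genes of 0.02 and -0.00.

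Genes of epithelial junctions were more often higher than lower in both lines. Of 29 tested in MDA-MB-231, 13 were higher (44.8%, beside 27.2% of all tested genes) and 5 lower (17.2%, beside 26.8%). The median log2 fold change was 0.15. The largest changes were those of *TJP3*, a zonula occludens scaffold (from 0.452 ± 0.168 to 6.07 ± 0.606 CPM, SD, n = 3, log2 fold change 3.72, SE 0.28), *JUP*, which encodes plakoglobin (28.0 to 131 CPM, 2.23, SE 0.10), *CDH3*, which encodes P-cadherin (1.21 to 5.30 CPM, 2.13, SE 0.24), and the polarity gene *LLGL2* (14.1 to 56.3 CPM, 1.999, SE 0.11). In 4T1, 13 of 29 were higher (44.8%, beside 29.5%) and 8 lower (27.6%, beside 29.4%), with a median of 0.37. *Tjp3* rose from 2.43 ± 0.597 to 25.6 ± 1.05 CPM (log2 fold change 3.40, SE 0.16), *Llgl2* from 13.1 to 38.7 CPM (1.56, SE 0.15) and the claudin *Cldn1* from 0.559 to 1.66 CPM (1.56, SE 0.36). Another claudin, *Cldn4*, fell from 4.86 to 1.83 CPM (-1.41, SE 0.23).

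Among regulators and surface genes of epithelial cells, MDA-MB-231 had 10 of 19 tested genes higher (52.6%, beside 27.2%) and 1 lower (5.26%, beside 26.8%). The median was 0.53. *ELF3*, an epithelial ETS factor, went from 3 counts over all DMSO libraries to 628 over all ponatinib libraries, a 195-fold difference (95% Clopper-Pearson interval 66.4 to 948, counting error only). The membrane protease gene *ST14* (0.604 to 2.26 CPM, log2 fold change 1.89, SE 0.31) also rose. In 4T1, 9 of 21 were higher (42.9%, beside 29.5%) and 5 lower (23.8%, beside 29.4%), with a median of 0.34. The mucin gene *Muc1* rose (7.40 to 19.3 CPM, 1.38, SE 0.15), as did *Mal2* (0.685 to 1.62 CPM, 1.23, SE 0.32). The 5 lower genes there were all epithelial regulators. The largest falls were those of the grainyhead factor *Grhl1* (4.69 to 1.61 CPM, -1.54, SE 0.22) and the splicing factor *Esrp1* (3.54 to 1.29 CPM, -1.45, SE 0.27). *Grhl2* (-1.22, SE 0.17), *Klf5* (-0.60, SE 0.13) and *Klf4* (-0.48, SE 0.08) fell as well. The keratins among the epithelial cell markers did not move alike either. In MDA-MB-231, *KRT8* and *KRT7* each rose by 0.88 on the log2 scale, whereas *KRT18* and *KRT19* did not pass the test (0.12 and -0.03). In 4T1, *Krt7* (-0.87, adjusted p = 0.000229) and *Krt18* (-0.54, adjusted p = 0.000125) fell, *Krt8* rose (0.24, adjusted p = 0.0298) and *Krt19* did not pass (0.21, adjusted p = 0.0628).

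Other transcription factors linked to EMT were lower more often than higher. In MDA-MB-231, 6 of 17 tested were lower (35.3%, beside 26.8% of all tested genes) and 3 higher (17.6%, beside 27.2%). The median was 0.00, beside 0.02 over all tested genes. The chromatin protein gene *HMGA2* fell from 68.3 ± 2.47 to 25.3 ± 3.22 CPM (SD, n = 3, log2 fold change -1.43, SE 0.10) and *SOX9* from 57.9 to 29.5 CPM (-0.97, SE 0.12). *SOX4* rose from 6.91 to 30.5 CPM (2.14, SE 0.12) and the third SNAIL family gene *SNAI3* from 0.860 to 1.94 CPM (1.17, SE 0.34). In 4T1, 9 of 18 were lower (50.0%, beside 29.4%) and 3 higher (16.7%, beside 29.5%), with a median of -0.28. *Hmga2* fell from 1162 ± 21.5 to 274 ± 14.9 CPM (-2.08, SE 0.08), *Sox9* from 188 to 40.3 CPM (-2.22, SE 0.08) and the homeobox gene *Prrx1* from 8.84 to 1.00 CPM (-3.14, SE 0.26). Its paralog *Prrx2* rose from 15.3 to 39.4 CPM (1.37, SE 0.11).

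Mesenchymal effectors split evenly in MDA-MB-231, where 12 of 32 tested were lower and 12 higher (37.5% each, beside 26.8% and 27.2%). The median was -0.02. The matrix gene *TNC*, which encodes tenascin-C, fell from 139 ± 6.91 to 41.4 ± 3.58 CPM (SD, n = 3, log2 fold change -1.74, SE 0.09). By contrast, the receptor gene *PDGFRB* (0.451 to 9.24 CPM, 4.33, SE 0.29), *S100A4* (4.32 to 22.7 CPM, 2.39, SE 0.17) and the collagen gene *COL1A1* (27.8 to 74.9 CPM, 1.43, SE 0.09) rose. Of the fibroblast markers, *COL1A1* alone had over 1 CPM in this line, and *DCN* and *LUM* were at the floor. In 4T1, 11 of 27 were lower (40.7%, beside 29.4%) and 6 higher (22.2%, beside 29.5%), with a median of -0.05. *Tnc* fell from 12.1 to 0.856 CPM (-3.81, SE 0.22), the fibronectin gene *Fn1* from 3414 ± 323 to 970 ± 140 CPM (-1.82, SE 0.11) and the nestin gene *Nes* from 10.1 to 3.01 CPM (-1.75, SE 0.17). *Postn*, which encodes periostin, rose from 1.83 to 6.37 CPM (1.79, SE 0.22).

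The TGF-β pathway, a known inducer of EMT, had 8 of 30 tested genes lower and 8 higher in MDA-MB-231. These shares of 26.7% each stood beside 26.8% and 27.2% of all tested genes, and the median was -0.05. The ubiquitin ligase gene *SMURF2* fell from 257 ± 20.5 to 111 ± 14.6 CPM (SD, n = 3, log2 fold change -1.22, SE 0.10). The inhibitory SMAD gene *SMAD6* rose from 3.96 to 31.6 CPM (2.996, SE 0.15) and the ligand *TGFB2* from 63.1 to 141 CPM (1.16, SE 0.11). In 4T1, 16 of 29 were lower (55.2%, beside 29.4%) and 8 higher (27.6%, beside 29.5%), with a median of -0.21. The activin gene *Inhba* (11.4 to 4.21 CPM, -1.43, SE 0.18) and its antagonist *Fst* (2.01 to 0.553 CPM, -1.84, SE 0.37) fell. *Tgfb2* (12.03 to 42.2 CPM, 1.81, SE 0.11) and *Tgfbi* (0.465 to 2.61 CPM, 2.48, SE 0.33) rose.

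The list for the cadherin–catenin complex, which ties cadherins to actin, also holds genes outside the core complex, such as *CTNNBIP1*. In MDA-MB-231, 2 of its 8 tested genes were lower and 2 higher. These shares of 25.0% each stood beside 26.8% and 27.2% of all tested genes. The α-catulin gene *CTNNAL1* (-0.79, SE 0.08) and the α-catenin gene *CTNNA1* (-0.28, SE 0.07) fell, and the p120-catenin gene *CTNND1* (0.45, SE 0.09) and *CTNNBIP1*, an inhibitor of β-catenin (0.52, SE 0.11), rose. The call of *CTNNA1* was lost with scaling by total counts (adjusted p = 0.0530). In 4T1, 1 of 7 was lower (14.3%, beside 29.4%) and 3 higher (42.9%, beside 29.5%). *Ctnnb1*, which encodes β-catenin, rose from 1349 ± 36.3 to 1984 ± 112 CPM (SD, n = 3, log2 fold change 0.56, SE 0.08), as did *Ctnnbip1* (0.85, SE 0.21) and *Ctnnal1* (0.59, SE 0.17). *Afdn*, the afadin gene, was lower (-0.27, SE 0.10, adjusted p = 0.0276), a call lost with scaling by total counts (adjusted p = 0.196) and without DMSO replicate 2 (0.106), ponatinib replicate 2 (0.0864) or ponatinib replicate 3 (0.150). The call of *Ctnnal1* was lost without ponatinib replicate 1 (0.46, adjusted p = 0.0513).

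**Figure D4:**
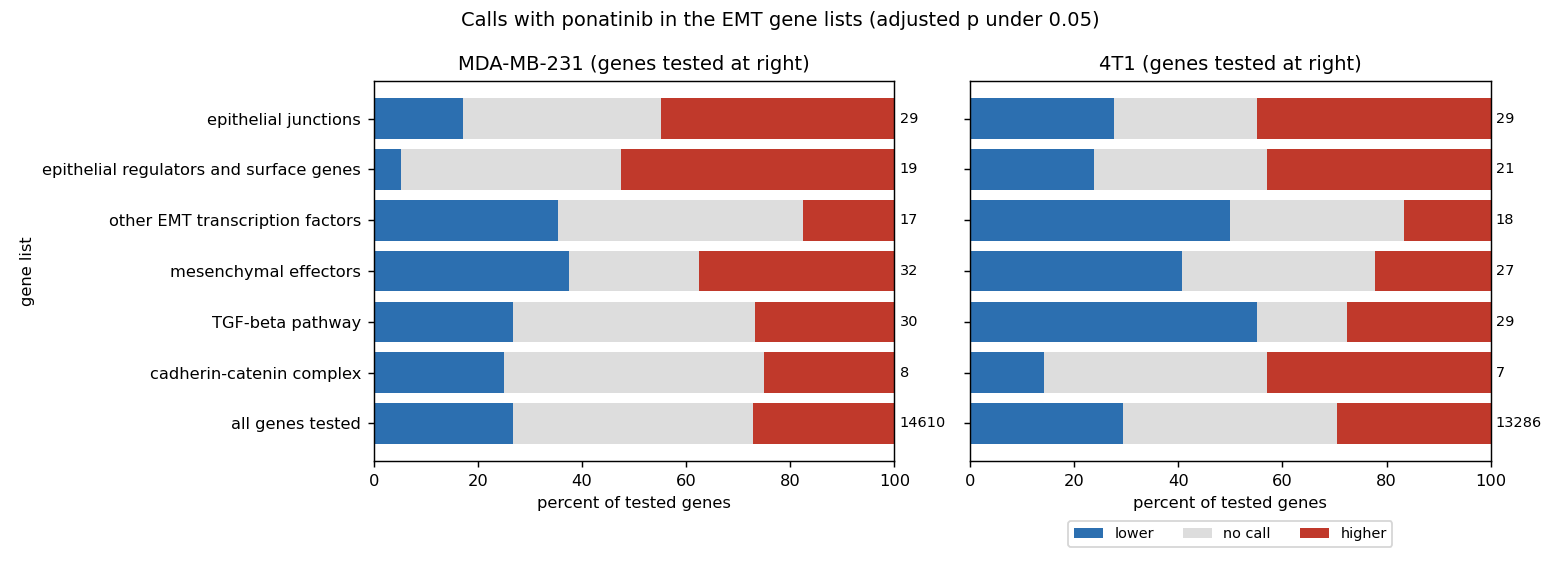
Share of tested genes lower (blue), higher (red) and without a call (grey) in each list and among all tested genes, for both lines. Numbers at the right are genes tested. The TGF-β list of 4T1 has 16 of 29 genes lower, and the list of epithelial regulators and surface genes in MDA-MB-231 has 1 of 19 lower.

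The genes whose pattern over the 6 libraries of a line was most like that of its most changed member were found by the Euclidean distance of log2 CPM after subtraction of the DMSO mean. For *CLDN7* in MDA-MB-231, these were *ICA1*, *APOL3*, *ADORA1*, *MMP15* and *TSPAN15*, at distances of 0.117 to 0.133 among 9491 genes whose larger group mean was 10 CPM or more. *ADORA1*, which encodes an adenosine receptor, had 22.4, 20.7 and 20.4 CPM with DMSO and 54.0, 49.4 and 50.8 CPM with ponatinib. For *Zeb2* in 4T1, they were *Med13*, *Skic3*, *Sgms2*, *Slc4a7* and *Naa50*, at distances of 0.156 to 0.207 among 9438 genes. *Med13*, which encodes a Mediator subunit, had 99.1, 119 and 105 CPM with DMSO and 67.6, 59.9 and 50.6 CPM with ponatinib. Distances were given as a description, since all genes of a line share the same libraries.

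**Figure D5:**
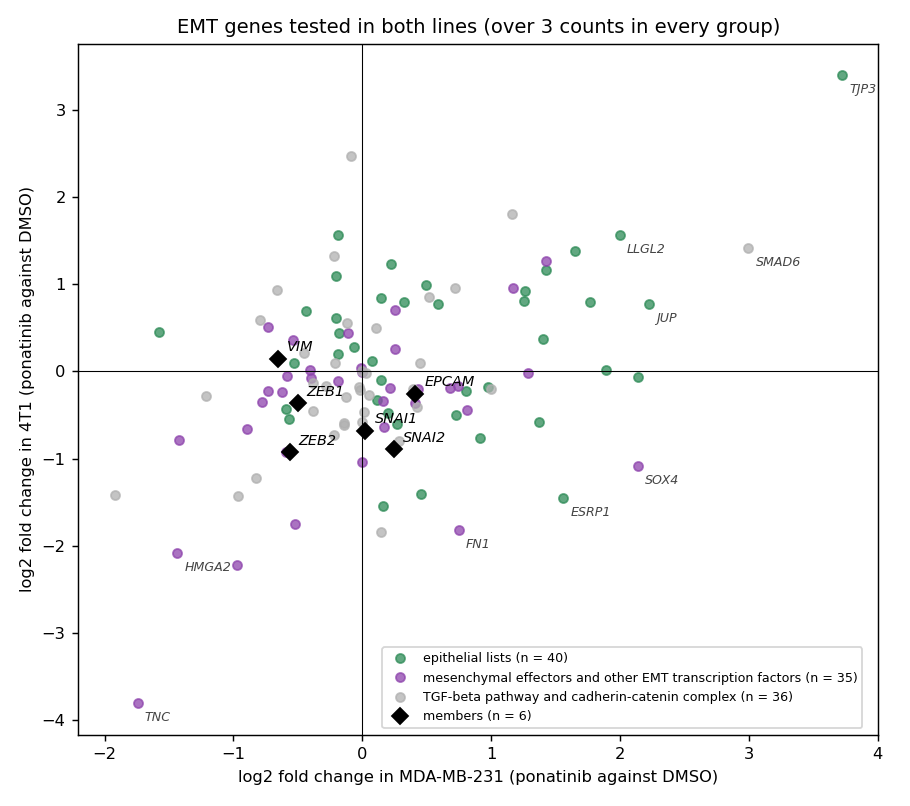
Log2 fold change with ponatinib in MDA-MB-231 (horizontal axis) and 4T1 (vertical axis) for 111 listed genes (round) and 6 members (diamonds) tested in both lines with over 3 counts in every group. *TJP3* lies at the upper right with 3.72 and 3.40, *TNC* at the lower left with -1.74 and -3.81, and *SOX4* and *FN1* at the lower right.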

How the data were processed

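RNA-seq counts were analysed for 12 libraries, grouped by their labels into 2 lines and 2 treatments with 3 libraries each. According to the methods, reads were cleaned of adapters and poly-N, and the authors aligned them to hg38 or GRCm39 with HISAT2, counted per gene by HTSeq and deposited the unnormalized counts, which are whole numbers. Tool versions, annotation and strand setting are not given in the sources used here. Gene symbols, exon lengths and coordinates were taken from GENCODE v44 and vM39. The deposited identifiers are older than these, and 81.9% of human and 91.1% of mouse identifiers matched, holding 99.3% and 99.8% of the counts.

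Each line was tested by the quasi-likelihood test of edgeR 4.0.16 under R 4.3.3, after filterByExpr and TMM, with p-values adjusted by Benjamini-Hochberg over all tested genes (threshold 0.05). CPM used TMM-scaled totals, and RPKM was CPM per kilobase of merged exons. The difference between the lines was the interaction of line and treatment over 12490 same-symbol genes. The edgeR fits within each line and of the difference between the lines were run on simulated counts, the latter with library totals for scaling. Other steps were not simulated. Total counts of 15012884 to 18951493 and a common biological coefficient of variation of 0.0990 (MDA-MB-231) and 0.0869 (4T1) set the precision.

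The members and lists were chosen with earlier results of these data known. Besides the 10 members, the text names up to 4 called genes per list and line with the largest change and a mean of 1 CPM or more in either group, and 5 genes per line of like pattern. Of the 172 listed genes, 171 were found in mouse, where 3 were paired by hand with a differing symbol. For 4 listed genes, the results are not reported here. The keratins, *Grhl2*, *Klf4*, *Klf5* and the overlapping genes were named after their values were seen.

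Same-numbered DMSO and ponatinib libraries deviated together from their group means, with correlations of 0.345, 0.111 and 0.133 for MDA-MB-231 and of 0.213, 0.119 and 0.115 for 4T1. Pairs of differing number reached 0.163 (MDA-MB-231 DMSO 2 and ponatinib 3) and 0.119 (4T1 DMSO 3 and ponatinib 2), and nothing else says what a number marks. The reported tests carry no block, and a fit with the replicate block is given beside a call that it changed. No library was a copy of another. Alternatives were DESeq2 1.42.0, its size factors in edgeR, scaling by total counts, the replicate block, no filter, a minimum of 10 counts per library, each library left out in turn and, for baseline levels, the longest transcript as gene length.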

Additional observations from a re-analysis of the deposited data

Results flagged for a closer look

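Among the 6 members tested in both lines, the response to ponatinib differed between 4T1 and MDA-MB-231 for *SNAI2*, *VIM* and *EPCAM*. The differences on the log2 scale were -1.14 (SE 0.14), 0.80 (SE 0.15) and -0.67 (SE 0.24). *SNAI1*, *ZEB1* and *ZEB2* did not pass this test. Of 12490 same-symbol genes, 42.0% passed it, so that the share of members lies near that background. For *VIM*, the difference was a called fall in MDA-MB-231 beside a value of 0.15 in 4T1 that did not pass the test. For *SNAI2*, it was a called fall in 4T1 beside a value of 0.25 in MDA-MB-231 that did not pass. With the replicate number as a block, *SNAI2* was called higher in MDA-MB-231 (0.24, adjusted p = 0.00366), so that the lines then had calls in opposite directions.

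Of 111 listed genes tested in both lines with over 3 counts in every group, 49 were called in both (44.1%). Under the same minimum, 37.7% of 9819 same-symbol genes were called in both lines. The 49 listed genes had the same direction in 30 cases and opposite directions in 19 (38.8%). Of all 3706 same-symbol genes called in both lines under the same minimum, 1035 had opposite directions (27.9%), and the shares were not tested against each other. The 19 genes were chosen for their opposite calls, after their values were seen, so that a difference between the lines was largely set by that choice and is given as a description. Among transcription factors, *SOX4* had log2 fold changes of 2.14 and -1.08 in MDA-MB-231 and 4T1 (difference -3.22) and *RUNX2* 0.41 and -0.37 (difference -0.77). The splicing factor gene *ESRP1* had 1.56 and -1.45 (difference -3.01, SE 0.47), at low levels in both lines. It went from 0.453 to 1.36 CPM in MDA-MB-231 and from 3.54 to 1.29 CPM in 4T1.

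Of the junction genes, 5 rose in MDA-MB-231 and fell in 4T1. The differences were -1.94 for *CXADR*, -1.86 for *CLDN4*, -1.68 for *PKP3*, -1.22 for *PARD6B* and -1.16 for *F11R*. The other direction was taken by *NECTIN1* (difference 1.12), and in the cadherin–catenin list by *CTNNAL1* (1.38). Among mesenchymal effectors, *FN1* had 0.75 and -1.82 (difference -2.56), *COL5A1* differed by -1.26 and the protease gene *MMP14* by 0.90. Among genes of the TGF-β pathway, the differences were -1.08 for *TGIF1*, -0.83 for *LTBP4*, -0.59 for *SMAD2*, 0.66 for *SKI* and 1.60 for *PMEPA1*. Within 4T1, the calls of *F11r* and *Ltbp4* were each lost in 7 of 12 alternatives. Those of *Smad2* and *Ski* were each lost in 5 and that of *Runx2* in 3. Within MDA-MB-231, the call of *TGIF1* was lost in 2 of 12.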

How the results depend on the processing

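The counts of called members and of called listed genes stayed within 1.5 times the reported value under every alternative tried, and so did the counts of members at or above 1 RPKM. For counts as small as those of the members this bound is wide, and it leaves direction aside. The members of 4T1 under scaling by total counts, given above, fall within it although their directions changed. The log2 fold change of *SNAI1* in MDA-MB-231, 0.02 as reported, changed sign when a library was left out, with a range from -0.073 to 0.11 over these fits, and passed the test in none of them. With the replicate block, 6 members were called in MDA-MB-231 (3 lower and 3 higher) and 4 in 4T1, and 95 and 98 listed genes in place of 82 and 92. Apart from *SNAI2* and *ZEB2* in MDA-MB-231, the block changed the call of no member. The call of *EPCAM* in MDA-MB-231 and that of its difference between the lines were the least stable among the members. The causes of these changes were not tested. *CDH1*, *CDH2* and *TWIST1* in MDA-MB-231 and *Cdh2* and *Cldn7* in 4T1 lay at or near 3 counts per library, so that a change in them was not detectable at this depth.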
